A study of Mus musculus with 3 samples.

Results

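Smooth muscle cells and pericytes, the mural cells that wrap blood vessels, were followed in mandibular condyles of wild-type (WT) and *Dspp* mutant mice through 7 genes, taken by symbol from a table of 26970 genes. *Acta2*, *Myh11*, *Tagln*, *Cnn1* and *Lmod1* encode proteins of the smooth muscle contractile apparatus, and *Pdgfrb* and *Rgs5* are used as pericyte and mural cell markers. All 7 were found in the table. The most abundant of them was *Rgs5*, which was higher in both mutant libraries than in WT, whereas *Pdgfrb* was lower in both. Of the contractile genes, *Myh11* was modestly higher in both mutant libraries, and *Lmod1* and *Acta2* were higher in *Dspp*+/- but close to WT in *Dspp*-/-. *Cnn1* and *Tagln* were read from few fragments. None of the 7 reached a 2-fold difference between any pair of genotypes, a size that 0.798% to 4.88% of all genes compared reached in a given direction.

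Vascular smooth muscle cells form the wall of arteries and veins and contract through actin and smooth muscle myosin, while pericytes sit on capillaries within the basement membrane of the endothelium. Pericytes are recruited to new vessels when endothelial cells release PDGF-B, which is bound by the receptor PDGFRβ on the mural cell. Transcription of the contractile genes depends on serum response factor (SRF) and its coactivator myocardin, which act at a short A and T rich element known as the CArG box. In bone, blood vessels run through the marrow spaces below the joint cartilage, whereas healthy cartilage holds none.

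The study asked how loss of dentin sialophosphoprotein, a protein of dentin, bone and cartilage matrix, affects the condyle of the jaw joint. Condyles were taken from mice aged 4 months in 3 groups: WT mice, *Dspp*-/- mice, in which the gene is knocked out in every cell, and *Dspp*+/- mice, obtained by crossing *Dspp*-/- with WT mice. All mice shared the C57BL/6 background, and the condyles kept their cartilage attached to the bone below it. Each genotype has 1 library. The methods give pools of 3 animals for WT and for *Dspp*+/-, and the number behind the *Dspp*-/- library is not given in the sources used here. Although the sample descriptions speak of triplicates, the table has 1 value per gene and genotype. With no replicates, no difference could be tested, and every difference below is a difference between individual libraries. Values are FPKM, the number of sequenced fragments per kilobase of gene and per unit of library size, so levels of genes of different length can be compared.

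The library sizes were estimated from the values and gene lengths, at 20241569 fragments for WT, 23613663 for *Dspp*+/- and 22253132 for *Dspp*-/-. All fragment counts given here follow from these estimates. The libraries differed in composition. Mitochondrial genes took 25.02%, 36.9% and 37.3% of the summed FPKM in WT, *Dspp*+/- and *Dspp*-/-, and 12 genes of blood-forming marrow summed to 1222, 5318 and 5839 FPKM. The female-specific transcript *Xist* had 2 fragments in WT but 28.5 FPKM in *Dspp*+/- and 26.5 FPKM in *Dspp*-/-. The sex of the animals and the genotype therefore cannot be told apart. Markers of the labelled tissue were present in all 3 libraries: *Col2a1* of cartilage was at 761, 94.3 and 308 FPKM and *Col1a1* of bone at 6675, 1719 and 3610 FPKM. The level of *Dspp* itself, which would check the genotypes, was not analysed here.

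Promoter sequences from RefSeq (build GRCm38.p6) were read for 4 of the 7 genes, *Acta2*, *Lmod1*, *Cnn1* and *Rgs5*, as windows from 250 bases before to 50 bases after the start of transcription. Both strands were searched for the CArG box, 10 bases long with 6 A or T bases between CC and GG. The strict form was in none of the 4 windows, and in 1.63% of the 32851 promoters of the reference. A second search, chosen after this result was seen, allowed 1 G or C among the 6 inner bases. It found 2 matches in *Acta2*, beginning 84 and 34 bases before the start used for its window. No match was in the other 3 windows, and 9.98% of all promoters held a match. The 250 bases before the start are shown for *Acta2*, for *Lmod1*, the contractile gene with the largest difference in *Dspp*+/- among those above 1 FPKM, and for *Rgs5*, the most abundant of the 7. Capitals mark the matches to the relaxed CArG box. *Acta2* lies on the minus strand at chr19:34255374-34255623, *Lmod1* on the plus strand at chr1:135324563-135324812 and *Rgs5* on the plus strand at chr1:169655251-169655500.
*Acta2*: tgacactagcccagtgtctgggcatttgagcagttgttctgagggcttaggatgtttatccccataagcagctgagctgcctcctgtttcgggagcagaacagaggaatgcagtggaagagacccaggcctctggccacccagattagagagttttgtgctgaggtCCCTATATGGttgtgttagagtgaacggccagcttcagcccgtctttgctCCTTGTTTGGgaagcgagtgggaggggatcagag
*Lmod1*: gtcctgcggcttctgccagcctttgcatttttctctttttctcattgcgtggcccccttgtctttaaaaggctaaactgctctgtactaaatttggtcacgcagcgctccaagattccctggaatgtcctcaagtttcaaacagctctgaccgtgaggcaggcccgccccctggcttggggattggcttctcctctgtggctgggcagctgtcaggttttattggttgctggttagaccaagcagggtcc
*Rgs5*: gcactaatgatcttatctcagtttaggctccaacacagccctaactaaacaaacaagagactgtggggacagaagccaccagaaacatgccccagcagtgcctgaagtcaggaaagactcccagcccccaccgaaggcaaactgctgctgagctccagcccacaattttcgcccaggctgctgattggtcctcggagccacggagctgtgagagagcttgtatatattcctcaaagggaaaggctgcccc
A match is a description of the letters, not of a bound site, and nothing follows for a factor from a window without a match.

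**Figure D1:**
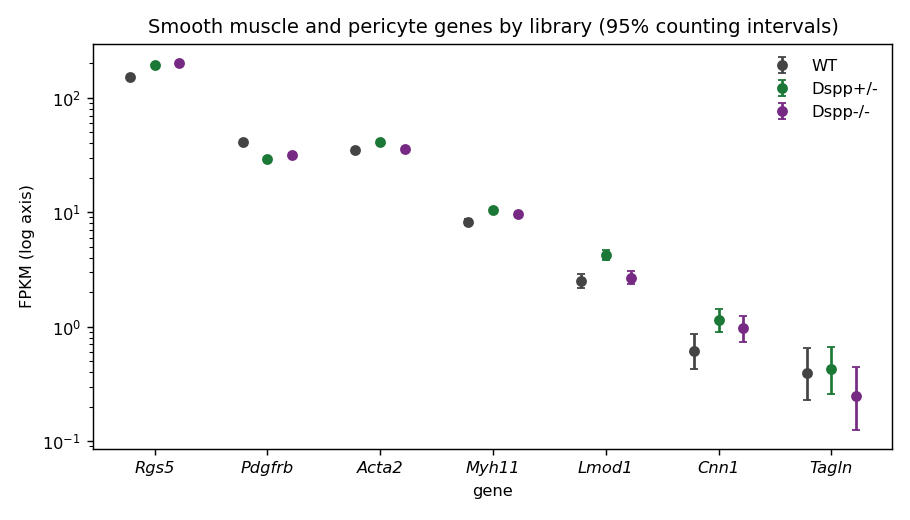
Level of each gene in each library, in FPKM on a log axis. Points are the value of 1 library per genotype and bars are 95% counting intervals, often smaller than the point. *Rgs5* stands highest, at 152 to 201 FPKM, and *Tagln* lowest, at 0.249 to 0.426 FPKM.

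The levels of the 7 genes covered a wide range, as the plot of levels by library shows. In the WT library the order was *Rgs5*, *Pdgfrb*, *Acta2*, *Myh11*, *Lmod1*, *Cnn1* and *Tagln*. In both mutant libraries *Acta2* stood above *Pdgfrb*, and the rest of the order was the same. Neighbours in this order had 95% counting intervals that did not overlap, except *Cnn1* and *Tagln* in WT (0.425 to 0.858 against 0.227 to 0.646 FPKM). These intervals were computed from the fragments behind each value and cover counting error only, not the differences between animals or preparations. *Rgs5*, *Pdgfrb* and *Acta2* were above at least 95.5% of all genes in every library, whereas *Tagln* was above only 37.1% to 43.6%. The list therefore holds genes of very different standing, and the contractile markers *Cnn1* and *Tagln* had few fragments where *Acta2* and *Myh11* were readily detected.

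Gene positions from here on are those of the authors' table, whose mouse build is not given in the sources used here. *Rgs5* (ENSMUSG00000026678, chromosome 1, plus strand, 169483070 to 169523382) encodes a regulator of G protein signalling that shortens the response of mural cells to contracting signals. It measured 152 FPKM in the WT library, 195 in the *Dspp*+/- library and 201 in the *Dspp*-/- library, from 13998, 20963 and 20340 fragments. Both mutant libraries were thus higher than WT and close to each other. The fold was 1.28 in *Dspp*+/- (95% counting interval 1.26 to 1.31) and 1.32 in *Dspp*-/- (1.29 to 1.35), and *Dspp*+/- over *Dspp*-/- was 0.971 (0.953 to 0.990). Among all genes *Rgs5* ranked 185th in WT, 135th in *Dspp*+/- and 121st in *Dspp*-/-.

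*Pdgfrb* (ENSMUSG00000024620, chromosome 18, plus strand, 61178222 to 61218133) encodes the PDGF-B receptor and is also expressed by many fibroblasts. Its level was 41.3 FPKM in the WT library, 29.3 in the *Dspp*+/- library and 31.7 in the *Dspp*-/- library, from 4575, 3794 and 3866 fragments. It was the only gene of the 7 that was lower in both mutant libraries with an interval that excluded 1: the fold was 0.711 (0.681 to 0.742) for *Dspp*+/-, and for *Dspp*-/- it was 0.769 (0.736 to 0.802). The mutant libraries differed less from each other, at 0.925 (0.884 to 0.967). The 2 genes used here as pericyte markers therefore stood in opposite directions from WT. Both directions were the same under the 6 scalings of the libraries that were compared.

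**Figure D2:**
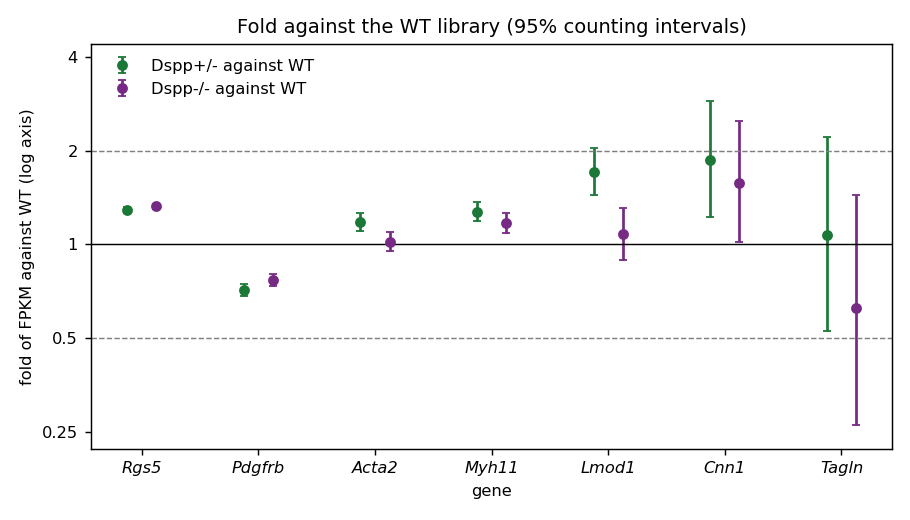
Fold of FPKM in *Dspp*+/- (green) and *Dspp*-/- (purple) against the WT library, on a log axis, for each gene. Points are ratios of individual libraries, bars are 95% counting intervals, and dashed lines mark 2-fold. *Pdgfrb* lies below 1 and *Rgs5* and *Myh11* above 1 in both mutants, and the intervals of *Tagln* span 1.

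*Acta2* (ENSMUSG00000035783, chromosome 19, minus strand, 34218490 to 34232990) encodes smooth muscle alpha-actin, which is also made by myofibroblasts. It measured 34.8 FPKM in the WT library, 41.0 in the *Dspp*+/- library and 35.4 in the *Dspp*-/- library, from 1546, 2128 and 1730 fragments. The *Dspp*+/- library was the highest, at 1.18-fold WT (1.105 to 1.261), and 1.16-fold *Dspp*-/- (1.09 to 1.24). For *Dspp*-/- the fold to WT was 1.02 (0.9498 to 1.09), and its sign changed between scalings, from -0.01 to 0.13 on the log2(FPKM + 1) scale.

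*Myh11* (ENSMUSG00000018830, chromosome 16, minus strand, 14012399 to 14109236) encodes the smooth muscle myosin heavy chain, the motor of contraction and the marker most confined to smooth muscle among the contractile genes. Its level was 8.20 FPKM in the WT library, 10.4 in the *Dspp*+/- library and 9.62 in the *Dspp*-/- library, from 1262, 1873 and 1627 fragments. Both mutant libraries were above WT, by 1.27-fold (1.18 to 1.37) for *Dspp*+/- and 1.17-fold (1.09 to 1.26) for *Dspp*-/-. *Dspp*+/- stood above *Dspp*-/- by 1.085-fold (1.015 to 1.16).

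*Lmod1* (ENSMUSG00000048096, chromosome 1, plus strand, 135252545 to 135295803) encodes the leiomodin of smooth muscle, which starts new actin filaments. It measured 2.49 FPKM in the WT library, 4.26 in the *Dspp*+/- library and 2.69 in the *Dspp*-/- library, from 199, 397 and 236 fragments. *Dspp*+/- stood apart from both other libraries, at 1.71-fold WT (1.44 to 2.04) and 1.585-fold *Dspp*-/- (1.35 to 1.87). The fold of *Dspp*-/- to WT was 1.08, and its interval, 0.8895 to 1.31, included 1.

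*Cnn1* (ENSMUSG00000001349, chromosome 9, plus strand, 22010512 to 22020926) encodes calponin 1, which binds actin and slows the myosin motor. Only 34 fragments for WT, 74 for *Dspp*+/- and 59 for *Dspp*-/- stood behind its values of 0.614, 1.145 and 0.969 FPKM. Both mutant libraries were above WT, with wide intervals of the fold: 1.87 (1.23 to 2.89) for *Dspp*+/- and 1.58 (1.02 to 2.48) for *Dspp*-/-. Its mean of 0.91 FPKM was under the minimum of 1 FPKM for comparison with other genes.

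*Tagln* (ENSMUSG00000032085, chromosome 9, minus strand, 45840917 to 45847356) encodes transgelin, an actin-binding protein that is a common early marker of smooth muscle. It was measured at 0.398 FPKM in the WT library, 0.426 in the *Dspp*+/- library and 0.249 in the *Dspp*-/- library, from 16, 20 and 11 fragments. At this depth no difference of *Tagln* was detectable: the fold was 1.07 (0.528 to 2.21) for *Dspp*+/- and 0.625 (0.262 to 1.435) for *Dspp*-/-. Exons of *Gm48529*, a gene on the opposite strand, cover 62.4% of the exon length of *Tagln*, and exons of *Pcsk7*, also on that strand, cover 5.43%. Because the strand setting of the counting is not given in the sources used here, fragments of these genes cannot be told apart, and the level of *Tagln* is uncertain. *Gm48529* itself had 30, 21 and 16 fragments in the same order, so the sum of both was 46, 41 and 27. A low value in this table is not by itself low expression: *Gapdh*, a glycolysis gene used by nearly all cells, was listed at only 3.79, 7.9 and 2.24 FPKM, and *Tnnc2*, a troponin of fast muscle, had 0, 1 and 0 fragments beside *Acta1* at 5609 to 8162 FPKM. For *Tagln* and *Cnn1*, low expression and low counting cannot be told apart. Unlike *Tagln*, the other 6 genes share no exon with another gene and no stretch of 100 bases with another transcript.

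The differences were next set against those of the whole table. Log2 ratios of FPKM + 1, which understate the change of low genes, were taken over the 13026 genes averaging at least 1 FPKM, 5 of the 7 among them, and a gene was called where it differed at least 2-fold on that scale. In *Dspp*+/- against WT, 4.88% of all genes were called higher and 2.86% lower. In *Dspp*-/- against WT these shares were 4.05% and 1.37%, and in *Dspp*+/- against *Dspp*-/- they were 0.798% and 0.852%. None of the 5 genes was called in any comparison, nor were *Cnn1* and *Tagln*. At a 1.5-fold threshold 1 of the 5, *Lmod1*, was called higher in *Dspp*+/-, where 11.5% of all genes were called higher and 8.95% lower. Both comparisons with WT use the same WT library. The 2-fold shares of all genes are also the background for the counts of called genes in the lists below. A short list with no gene called does not stand apart from shares this small.

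In *Dspp*+/-, 4 of the 5 genes were higher than WT and 1, *Pdgfrb*, was lower, with a median log2 ratio of 0.31 beside 0.06 over all genes. *Lmod1* had a higher ratio than 88.6% of all genes, *Rgs5* than 78.9%, *Myh11* than 75.6%, *Acta2* than 68.5% and *Pdgfrb* than 11.7%. In *Dspp*-/- the same counts were 4 and 1, with a median of 0.08 beside 0.01. There *Rgs5* exceeded 84.9% of all genes, *Myh11* 70.7%, *Lmod1* 58%, *Acta2* 52.1% and *Pdgfrb* 17.7%. Between the mutant libraries the median of *Dspp*+/- over *Dspp*-/- was 0.11 beside 0.04 over all genes, and *Lmod1* stood out most, above 93.6% of them. Higher values were common in the table, since 56.3% of all genes were higher than WT in *Dspp*+/- and 50.7% in *Dspp*-/-. Over all 7 genes the medians were 0.31 and 0.08, with 6 higher and 1 lower in *Dspp*+/- and 5 higher and 2 lower in *Dspp*-/-.

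**Figure D3:**
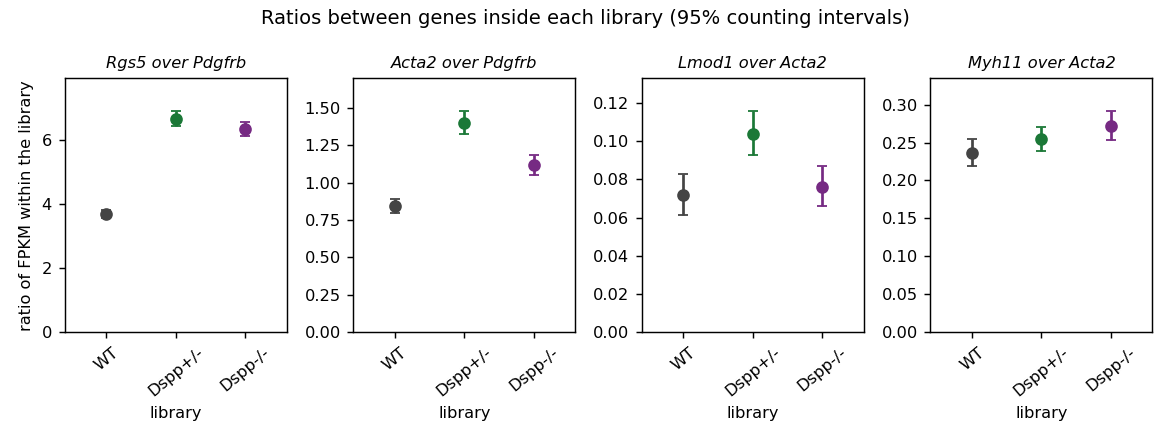
Ratio of FPKM of a pair of genes inside each library, from axes that start at 0. Points are 1 library each and bars are 95% counting intervals. *Rgs5* over *Pdgfrb* is 3.69 in WT and above 6 in both mutants, and *Lmod1* over *Acta2* is highest in *Dspp*+/-.

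Ratios of genes inside a library do not depend on how libraries were scaled to each other. For every unit of *Pdgfrb*, the WT library held 3.69 units of *Rgs5* (95% counting interval 3.57 to 3.81), the *Dspp*+/- library 6.66 (6.43 to 6.89) and the *Dspp*-/- library 6.34 (6.13 to 6.56). *Acta2* over *Pdgfrb* came to 0.843 (0.795 to 0.893) for WT, 1.40 (1.33 to 1.48) for *Dspp*+/- and 1.12 (1.05 to 1.18) for *Dspp*-/-. Against both *Rgs5* and *Acta2*, *Pdgfrb* thus took a smaller proportion in both mutant libraries than in WT. Among the contractile genes, *Myh11* over *Acta2* came to 0.236 (0.219 to 0.254) for WT, 0.254 (0.239 to 0.271) for *Dspp*+/- and 0.272 (0.254 to 0.291) for *Dspp*-/-. Smooth muscle myosin over actin was thus lowest in WT and highest in *Dspp*-/-, and the intervals of WT and *Dspp*-/- only just overlapped. Such an overlap does not show that the proportions were the same. *Lmod1* amounted to 7.16% of *Acta2* for WT (6.15% to 8.30%), 10.4% for *Dspp*+/- (9.30% to 11.6%) and 7.59% for *Dspp*-/- (6.60% to 8.70%), which sets the *Dspp*+/- library apart. *Cnn1* was 1.77% (1.22% to 2.48%), 2.79% (2.18% to 3.52%) and 2.74% (2.075% to 3.55%) of *Acta2* in WT, *Dspp*+/- and *Dspp*-/-. *Tagln* was 1.14% (0.652% to 1.86%), 1.04% (0.633% to 1.61%) and 0.702% (0.35% to 1.26%). For each of these genes the intervals overlapped between the libraries.

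Set against *Pecam1*, the adhesion molecule of endothelial cells, *Rgs5* came to 4.87 for WT (4.70 to 5.05), 5.07 for *Dspp*+/- (4.92 to 5.22) and 5.44 for *Dspp*-/- (5.27 to 5.61). *Acta2* over *Pecam1* was 1.11 (1.05 to 1.18), 1.06 (1.01 to 1.12) and 0.957 (0.906 to 1.01). Per unit of *Pecam1*, *Rgs5* was above WT and *Acta2* below it in *Dspp*-/-, with intervals apart from those of WT. In *Dspp*+/- the values leaned the same way, but their intervals overlapped those of WT. This order of *Acta2* depends on the gene chosen: *Pecam1* had a log2 ratio of 0.30 in *Dspp*+/-, above the median of 0.10 of the 15 endothelial genes. With the libraries scaled to the whole endothelial list, *Acta2* had log2 ratios of 0.11 for *Dspp*+/- and -0.01 for *Dspp*-/-, and *Rgs5* of 0.23 and 0.36. *Pdgfrb* over *Pdgfra*, the related receptor of fibroblasts and other mesenchymal cells, was 1.89 (1.82 to 1.97) for WT, 2.08 (1.99 to 2.18) for *Dspp*+/- and 1.63 (1.56 to 1.70) for *Dspp*-/-, so *Pdgfra* was proportionally lower than *Pdgfrb* in *Dspp*+/- and proportionally higher in *Dspp*-/-.

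Other pericyte and mural genes were mixed, and more of them were lower than higher. Of 16 listed genes 15 averaged at least 1 FPKM. In *Dspp*+/- 5 were higher and 10 lower than WT (median log2 ratio -0.23). In *Dspp*-/- 6 were higher and 9 lower (median -0.10, which lay between -0.13 and 0.01 over the scalings). In each mutant 1 gene, *Higd1b*, was called lower and none was called higher. Of all genes, 2.86% and 1.37% were called lower in *Dspp*+/- and *Dspp*-/-. Together the 16 genes summed to 287 FPKM in the WT library, 217 in the *Dspp*+/- library and 221 in the *Dspp*-/- library. *Higd1b*, a pericyte marker that encodes a mitochondrial protein, measured 6.59, 2.50 and 2.49 FPKM in WT, *Dspp*+/- and *Dspp*-/-, from 113, 50 and 47 fragments. *Ndufa4l2*, which lowers respiratory chain activity, was the most abundant at 99.4, 51.8 and 55.8 FPKM. *Cox4i2*, a subunit of cytochrome c oxidase, was at 23.5, 16.1 and 13.7 FPKM. These 3 genes, like *Pdgfrb*, were lower in both mutant libraries. The potassium channel subunit gene *Abcc9*, at 24.6, 26.8 and 28.1 FPKM, and the metalloreductase gene *Steap4*, at 38.4, 36.8 and 39.1 FPKM, differed little. *Rgs4*, a relative of *Rgs5*, had the largest positive ratio, at 5.95, 9.20 and 5.56 FPKM, high in *Dspp*+/- alone. *Cspg4*, the NG2 proteoglycan of pericytes, was added after its values were seen, at 17.5, 9.10 and 9.32 FPKM. Of the 15 genes compared, 3 were higher than WT in both mutants and 7 lower in both, beside 41.7% and 34.7% of all genes.

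The wider contractile list showed no common direction. Of 16 genes 13 were compared: 8 were higher and 5 lower than WT in *Dspp*+/- (median 0.16), and 6 were higher and 7 lower in *Dspp*-/- (median -0.01, between -0.04 and 0.09 over the scalings). No gene of this list was called. Its most abundant genes were *Tpm2*, a tropomyosin, at 662, 1074 and 773 FPKM in WT, *Dspp*+/- and *Dspp*-/-, *Des*, the intermediate filament desmin, at 517, 663 and 429, and *Tpm1* at 277, 313 and 259. These 3 genes are also expressed by skeletal muscle, whose 15 markers summed to 14066, 18805 and 14891 FPKM. *Synpo2*, an actin-bundling protein gene, was at 23.3, 38.8 and 32.4 FPKM, *Nexn*, which encodes an actin-binding protein, at 43.4, 67.6 and 60.9, and *Csrp1*, a LIM domain gene of smooth muscle, at 39.0, 30.1 and 29.5. The part of skeletal muscle in the contractile values was not tested.

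**Figure D4:**
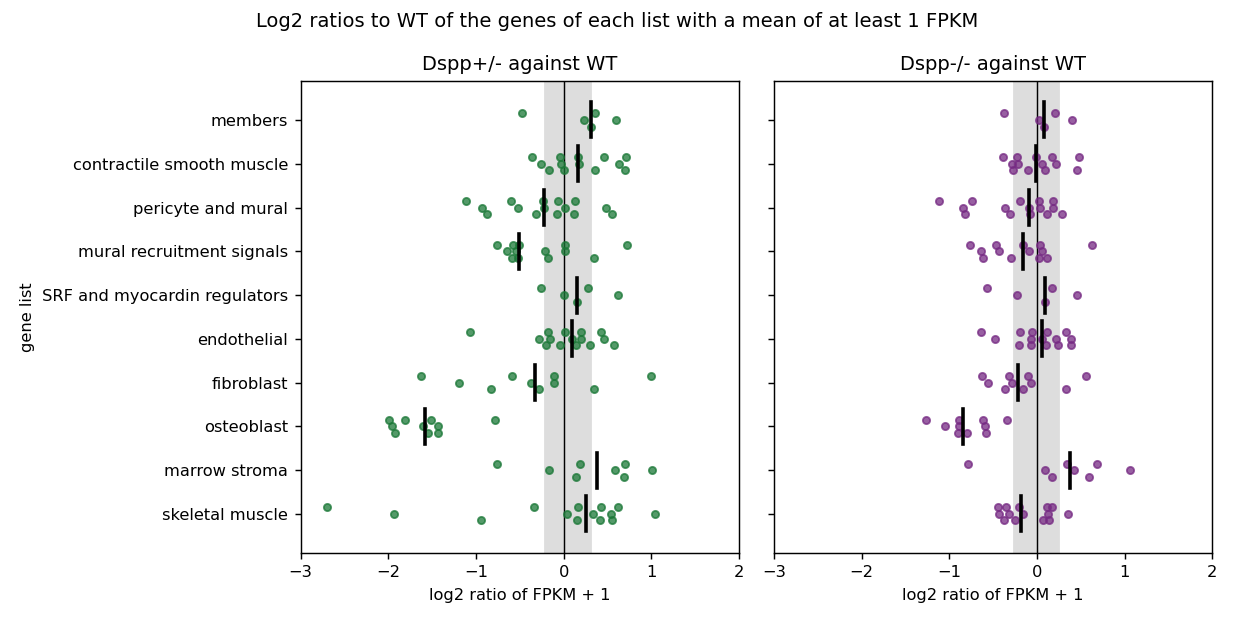
Log2 ratio of FPKM + 1 to WT for listed genes averaging at least 1 FPKM, in *Dspp*+/- (left) and *Dspp*-/- (right). Each point is a gene, vertical bars are list medians, and the grey band spans the middle 50% of all genes, from -0.21 to 0.31 and from -0.26 to 0.26. The row of members holds 5 of the 7 genes, with *Pdgfrb* to the left of the band and *Rgs5* to its right in both panels, and the osteoblast genes lie to the left of the band. The chondrocyte and blood-forming marrow lists, with medians of -2.87 and 2.05 in *Dspp*+/-, are not drawn.

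Among the regulators of contractile genes, *Srf* measured 27.2, 30.3 and 23.2 FPKM in WT, *Dspp*+/- and *Dspp*-/-. *Myocd*, the coactivator myocardin, was scarce at 0.238, 0.435 and 0.224 FPKM, from 31, 66 and 32 fragments. *Myocd* was, like *Lmod1*, highest in *Dspp*+/- and similar in the other libraries, a likeness singled out after the values were seen. The related coactivators *Mrtfa* and *Mrtfb* were at 5.72, 7.16 and 6.18 FPKM and at 6.42, 6.43 and 7.39 FPKM. *Klf4*, which represses contractile genes, was at 32.2, 26.8 and 21.3 FPKM, and *Tead1*, a factor of the Hippo pathway, at 10.9, 17.1 and 15.3. Of the 5 regulators compared, 4 were higher and 1 lower in *Dspp*+/- (median 0.15), and 3 higher and 2 lower in *Dspp*-/- (median 0.10). None was called.

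Ligands and receptors of mural cell recruitment were mostly lower in *Dspp*+/-. Of 13 genes 4 were higher and 9 lower than WT there (median -0.51), and 5 were higher and 8 lower in *Dspp*-/- (median -0.16). None was called. The ligands of PDGFRβ, named for that role, are encoded by *Pdgfb*, at 19.1, 16.4 and 13.5 FPKM, and *Pdgfd*, at 12.9, 8.69 and 13.1. *Pdgfa*, a ligand of the receptor PDGFRα, was at 19.9, 11.3 and 11.3 FPKM. *Pdgfra* itself was at 21.8, 14.1 and 19.5 FPKM. The receptors of the related signals differed among themselves: *Tgfbr2* of the TGF-β pathway was at 39.2, 24.7 and 31.8 FPKM, and *S1pr1*, a sphingosine-1-phosphate receptor of endothelium, at 49.0, 49.4 and 46.1. *Angpt1*, an angiopoietin made by mural cells, had the largest positive ratio, at 1.73, 3.50 and 3.21 FPKM. *Tgfb1* was at 35.0, 24.2 and 22.5 FPKM.

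Relatives of the contractile genes included far more abundant genes, whereas *Rgs5* stood above every listed RGS gene and *Pdgfrb* above *Pdgfra* in each library. *Acta1*, the actin of skeletal muscle, was at 5609, 8162 and 7150 FPKM in WT, *Dspp*+/- and *Dspp*-/-, so *Acta2* amounted to 0.62%, 0.503% and 0.495% of it. *Actc1*, the cardiac actin, was the 1 gene of that family called, at 10.9, 32.7 and 35.2 FPKM, higher in each mutant. All 6 leiomodins and tropomodulins compared were higher than WT in both mutants, with medians of 0.37 and 0.28, although under the scalings between 5 and 6 were higher in *Dspp*+/-. *Lmod2* of striated muscle was at 84.6, 109 and 134 FPKM and *Lmod3* at 19.5, 30.1 and 25.9. *Lmod2* was thus highest in *Dspp*-/-, where *Lmod1* was close to WT. *Cnn2* and *Cnn3*, calponins of non-muscle cells, were at 71.2, 46.5 and 47.3 FPKM and at 46.9, 27.7 and 39.4 FPKM, opposite in direction to *Cnn1*. *Tagln2*, the transgelin of many cell types, was at 53.1, 55.1 and 42.8 FPKM. In the RGS family 2 of the 7 genes compared were called higher in each mutant, with medians of 0.55 and 0.16. Of all genes, 4.88% and 4.05% were called higher in *Dspp*+/- and *Dspp*-/-. The 2 called RGS genes were *Rgs18* and *Rgs2*. *Rgs18*, a gene of platelets and other blood cells, was at 1.53, 7.55 and 9.93 FPKM, and *Rgs2* at 4.65, 11.9 and 10.7. *Rgs3* was at 11.1, 5.36 and 7.44 FPKM.

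Levels of other cell types moved with the genotypes, and their part in the values of the 7 genes was not tested. In whole tissue, fewer cells of a type and less RNA per cell cannot be told apart. The 15 endothelial genes, all with fragments in every library, summed to 322 FPKM in the WT library, 315 in the *Dspp*+/- library and 308 in the *Dspp*-/- library, with median log2 ratios of 0.10 and 0.06, and the first lay between -0.03 and 0.21 over the scalings. The summed level of these vessel lining genes was thus similar, but the genes differed among themselves: 9 were higher and 6 lower than WT in *Dspp*+/-. *Plvap*, a gene of the diaphragms of fenestrated endothelium, was called lower in *Dspp*+/- at 61.4, 28.7 and 39.0 FPKM. *Vwf* had the largest positive ratio there, at 4.64, 7.41 and 6.36 FPKM. Fibroblast genes, which can share *Pdgfrb*, summed to 1520, 736 and 1245 FPKM, and 8 of 10 were lower in each mutant (medians -0.32 and -0.22). All 10 osteoblast genes were lower in each mutant, with medians of -1.58 and -0.84, and so were the 9 chondrocyte genes compared, with medians of -2.87 and -1.04. The 8 marrow stroma genes had medians of 0.38 in both mutants, and the 12 genes of blood-forming marrow of 2.05 and 2.68. Of the listed markers, *Matn1* of cartilage was at 0 in *Dspp*+/-, and *Tnnc2* of skeletal muscle was at 0 in WT and *Dspp*-/-. *Matn1* had only 2, 0 and 3 fragments in WT, *Dspp*+/- and *Dspp*-/-, and *Tnnc2* had 0, 1 and 0. With so few fragments no difference of either gene was detectable.

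Genes with a pattern like that of the 7 were sought among the 4032 genes averaging at least 10 FPKM, by the distance between their pairs of log2 ratios to WT. Closest to the median of the members compared were *Golph3l*, *Smim19*, *Ccnk*, *Gtpbp1* and *1110002E22Rik*, and 129 genes lay within a distance of 0.1. Closest to *Rgs5* were *Snx5*, *Ccnl1*, *Akirin1*, *Psmc6* and *Zfp207*, and 104 genes lay within 0.1. *Snx5*, the nearest, measured 19.3 FPKM in the WT library, 24.9 in the *Dspp*+/- library and 25.9 in the *Dspp*-/- library. With 3 libraries, patterns of this size were shared by many genes.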

How the data were processed

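RNA was sequenced from mandibular condyles of WT, *Dspp*+/- and *Dspp*-/- mice, 1 pooled library per genotype, with poly(A) selection and paired 150-base reads by CapitalBio Technology. Per the submitters' processing notes, FastQC 0.11.5, HISAT2 2.1.0, StringTie 1.3.3b and DESeq 1.28.0 were used with build hg38, a human build, although identifiers and positions are of mouse genes. The positions are not those of GRCm38: start and end were shared with GENCODE M21 by 578 of 26641 genes. The authors deposited values that were read here as FPKM, since multiplied by merged exon length they gave whole fragments for 98.4% of 26641 genes. The tolerance was 0.05 fragment plus 0.01% of the count and the rounding of the values. Genes with many fragments pass this tolerance whatever their value. Among genes under 100 fragments, 98.94% to 98.95% passed in each library. Recovery of library size and fragments was tested on simulated data. Folds carry 95% Clopper-Pearson counting intervals. FPKM + 1 was compared on the log2 scale for genes averaging at least 1 FPKM. The tools were scipy 1.17.1, pandas 2.3.3, matplotlib 3.10.9 and numpy 2.4.6 under Python 3.11.15. No p-value is given, as 1 library per genotype allows no test. The members and the lists were chosen with earlier results of these data known. Named genes are the 7 members, up to 6 genes per list with the highest mean and the largest positive and negative ratios, and the 5 closest patterns. Some genes outside this rule, such as *Pdgfb*, *Pdgfd* and *Cspg4*, are named for reasons given where they appear. The lists overlap in some genes.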

Additional observations from a re-analysis of the deposited data

How the results depend on the processing

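The median log2 ratio of the members compared with WT in *Dspp*+/-, 0.31, was 0.42 with scaling without mitochondrial genes and 0.20 with scaling to the endothelial list. Over all genes the first of these moved the median from 0.06 to 0.15, and the second moved it to -0.05. At a threshold of 1.5-fold, 1 gene, *Lmod1*, was called in *Dspp*+/- against 0 at 2-fold, beside 11.5% of all genes called higher. The median of *Dspp*+/- over *Dspp*-/-, 0.11, was 0.21 without *Pdgfrb* and *Rgs5*, but 0.03 at a mean of at least 5 FPKM, where the median of all genes was 0.05, and 0.02 with scaling to the endothelial list, where it was -0.04. It is therefore not clearly apart from that of all genes. The median in *Dspp*-/-, 0.08, lay between 0.04 and 0.16, and the counts at 2-fold stayed at 0. Of 156 values of individual genes and ratios under the alternatives, 131 moved by less than their counting error and 25 by more. None of those for *Tagln* and *Cnn1* moved by more, as their counting intervals are wide. Better counted genes did move. In *Dspp*+/- against WT the log2 ratio ran over the scalings from 0.23 to 0.47 for *Rgs5* and from -0.60 to -0.37 for *Pdgfrb*. No paired analysis was possible because each genotype has 1 library, and for the same reason no library could be left out. Depth limits *Tagln* and *Cnn1*, for which 11 to 74 fragments stand behind a value.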
